A study of Drosophila melanogaster with 2 samples.

Results

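Nuclear tRNA genes are the genes whose transcripts carry amino acids to the ribosome. They were taken as all genes of the Ensembl annotation of the Drosophila melanogaster assembly dm6 on the arms 2L, 2R, 3L, 3R, 4 and X whose symbol starts with tRNA or whose biotype is tRNA. This gave 295 of 18164 annotated genes, of which 290 have the biotype tRNA and 5 are annotated pseudogenes. The binding data came from whole prepupae of mixed sex, of unknown age, from the Eip93F-MiMIC-GFP line, in which an eGFP exon inserted into an intron of Eip93F makes an Eip93F-GFP fusion. Chromatin was sonicated to fragments of 200 to 800 bp and precipitated with an antibody against GFP. There were 2 biological replicates of this 1 group and no other genotype, treatment or time. Whether they are from separate crosses or collections is not stated, and as whole animals were used, the cells in which a site was bound cannot be told apart.

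Eip93F encodes E93, a transcription factor of the ecdysone response in metamorphosis that acts on genes transcribed by RNA polymerase II. tRNA genes are instead transcribed by RNA polymerase III from promoters inside the gene. Their A box and B box, which lie in the transcribed sequence, are bound by TFIIIC, which places TFIIIB upstream of the start, and TFIIIB in turn recruits the polymerase. Many tRNA genes exist in identical copies, and they often sit in clusters or in the introns of protein-coding genes.

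The gene sequences show what such loci look like with and without a peak of Eip93F-GFP beside them. They were read from the RefSeq genome of dm6 (Release 6 plus ISO1 MT) and are given in the direction of transcription. Capitals mark the B box word GTTCGA or GTTCAA and, where it starts in the first 20 bases, the A box word, TGGC with AG 2 or 3 bases after it. These 6 genes are nearest to peaks among the 12 with the highest signal at tRNA genes: tRNA:Tyr-GTA-1-8 at 3R:8669081-8669174 on the minus strand, tRNA:Lys-TTT-1-1 at 2L:8290727-8290799 on the plus strand, tRNA:Gln-TTG-2-1 at X:3427452-3427523 on the minus strand, tRNA:Gln-TTG-1-3 at 3R:26947512-26947583 on the minus strand, tRNA:Leu-TAA-2-1 at 3R:24112964-24113047 on the plus strand and tRNA:Cys-GCA-1-3 at 3L:3096369-3096440 on the plus strand.
tRNA:Tyr-GTA-1-8: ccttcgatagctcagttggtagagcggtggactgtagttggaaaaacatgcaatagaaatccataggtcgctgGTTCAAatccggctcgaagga
tRNA:Lys-TTT-1-1: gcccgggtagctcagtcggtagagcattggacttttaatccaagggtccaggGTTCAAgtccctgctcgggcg
tRNA:Gln-TTG-2-1: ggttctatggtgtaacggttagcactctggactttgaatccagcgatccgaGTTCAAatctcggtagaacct
tRNA:Gln-TTG-1-3: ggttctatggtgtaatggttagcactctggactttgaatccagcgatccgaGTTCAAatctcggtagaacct
tRNA:Leu-TAA-2-1: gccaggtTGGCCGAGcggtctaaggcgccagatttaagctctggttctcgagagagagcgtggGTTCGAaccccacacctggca
tRNA:Cys-GCA-1-3: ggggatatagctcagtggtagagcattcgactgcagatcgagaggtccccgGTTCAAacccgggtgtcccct

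For comparison, 3 genes of the same amino acids had no entry of the pooled peak list within 500 bp. They are tRNA:Tyr-GTA-1-1 at X:21304441-21304535, tRNA:Lys-TTT-2-2 at 3R:6821068-6821140 and tRNA:Gln-CTG-2-5 at 2L:2013179-2013250, all on the minus strand.
tRNA:Tyr-GTA-1-1: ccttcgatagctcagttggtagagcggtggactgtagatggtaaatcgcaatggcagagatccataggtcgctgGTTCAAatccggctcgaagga
tRNA:Lys-TTT-2-2: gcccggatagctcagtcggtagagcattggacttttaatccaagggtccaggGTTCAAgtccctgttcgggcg
tRNA:Gln-CTG-2-5: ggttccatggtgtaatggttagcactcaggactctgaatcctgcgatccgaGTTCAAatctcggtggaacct
The B box word GTTCAA stands in these 3 genes as it does in 5 of the 6 genes with a peak. tRNA:Lys-TTT-1-1, with a peak, and tRNA:Lys-TTT-2-2, without one, differ at 2 of 73 bases, and tRNA:Gln-TTG-2-1 and tRNA:Gln-TTG-1-3, both with a peak, at 1 of 72 bases.

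The peaks themselves mostly lay in the flanks. The 41 bp centred on the summit, on the plus strand, are given for the strongest peak at a tRNA gene (3R:8669320-8669360), for the peak beside tRNA:Lys-TTT-1-1 (2L:8290991-8291031) and for the peak whose summit lay inside tRNA:Gln-TTG-1-3 (3R:26947498-26947538). Capitals mark a B box word on either strand.
summit at tRNA:Tyr-GTA-1-8: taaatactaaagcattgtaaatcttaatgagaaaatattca
summit at tRNA:Lys-TTT-1-1: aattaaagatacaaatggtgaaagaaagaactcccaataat
summit at tRNA:Gln-TTG-1-3: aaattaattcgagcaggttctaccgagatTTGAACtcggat
The first 2 windows hold no B box word. The third holds the reverse complement of GTTCAA, since the gene lies on the minus strand.

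The authors deposited 1 list of 30000 pooled entries, background included, a list of as many entries for each replicate, and a reproducible set. The reproducible set held 3401 peaks, which are the leading pooled entries by the caller's signal. The signal is the authors' own value per peak, made against a control alignment, and is comparable only within a list. The depth of the libraries is unknown, and no library from flies without the GFP exon was used here. Pooled entries below rank 3401 are called weaker entries. The leading entries of a replicate are the 3401 strongest of its own list. Intervals are 95% Wilson intervals. They cover counting error only and treat genes as separate, although neighbouring tRNA genes share peaks.

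Eip93F-GFP peaks were several times denser at tRNA genes than over the arms as a whole. A reproducible summit lay within 500 bp of 40 of the 295 genes, or 13.6% (interval 10.1 to 17.9). Positions of the same length on the 6 arms had one in 2.58% of cases, and as many positions on the same arms as there are tRNA genes would give 7.62. The ratio of observed to expected genes was 5.25. Measured from the 5′ end, 38 tRNA genes, or 12.9%, had a reproducible summit, against 9.44% of all annotated genes, a value just below the tRNA genes' interval of 9.53 to 17.2.

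In the full pooled list the difference from other genes was larger, while the ratio to positions was smaller. An entry of any rank lay within 500 bp of 192 tRNA genes, or 65.1% (interval 59.5 to 70.3), against 19.8% of positions. The ratio of observed to expected genes was 3.34 here, against 5.25 for the reproducible set. By the 5′ end, 188 tRNA genes, or 63.7%, had one, against 37.1% of all genes. Of the 295 genes, 152 had a weaker entry only, and 103 had no pooled entry within this distance.

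Each replicate showed the loci on its own. A leading entry of both replicates lay within 500 bp of 32 tRNA genes, or 10.8% (interval 7.79 to 14.9), against 1.69% of positions. By the 5′ end this held for 30 tRNA genes, or 10.2%, against 6.35% of all genes. Of the 32 genes, 31 are among the 40 with a reproducible summit. A leading entry lay by 41 genes in replicate 1 and by 46 genes in replicate 2. An entry of any rank in both replicate lists lay by 149 tRNA genes, or 50.5%, against 11.4% of positions and 27.1% of all genes by their 5′ ends. No entry of any list lay by 66 genes.

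**Figure D1:**
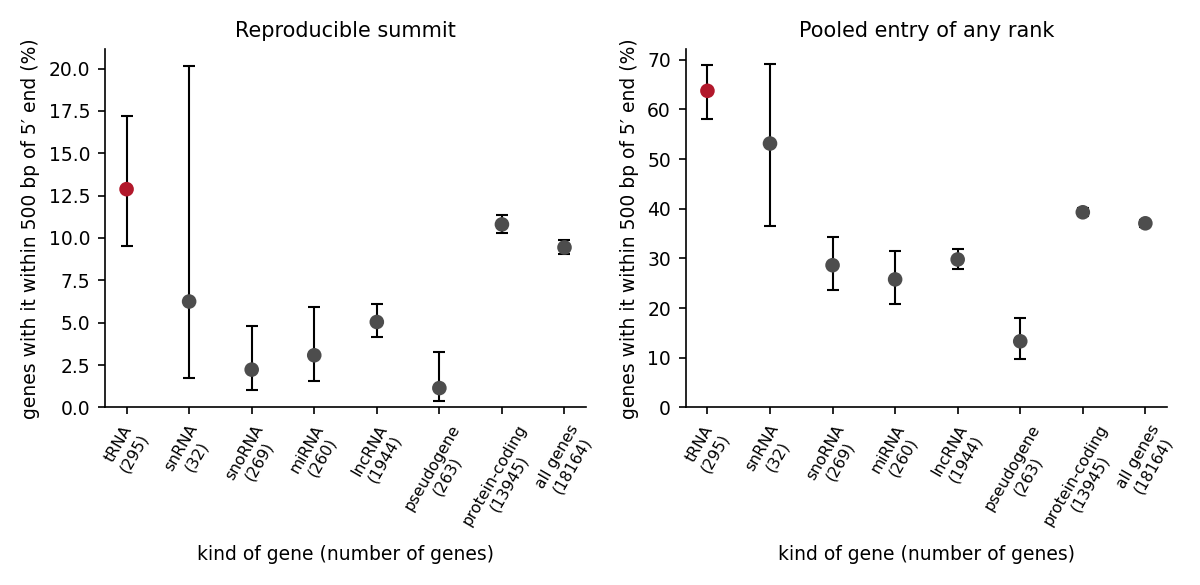
Share of genes (%) with a reproducible summit (left) and with a pooled entry of any rank (right) within 500 bp of the 5′ end, by kind of gene, with the number of genes in brackets; points are shares and bars 95% Wilson intervals. tRNA genes, at 12.9% and 63.7%, lie close to protein-coding genes (10.8%) on the left and above them (39.3%) on the right.

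Among the kinds of short non-coding RNA genes, tRNA genes had the highest shares. A reproducible summit lay at the 5′ end of 6 of 269 snoRNA genes (2.23%), 8 of 260 miRNA genes (3.08%) and 2 of 32 snRNA genes (6.25%, interval 1.73 to 20.2). Long non-coding RNA genes stood at 5.04%. The share of protein-coding genes, 10.8%, lies inside that interval of the tRNA genes. A pooled entry of any rank was found at 28.6% of snoRNA genes, 25.8% of miRNA genes, 53.1% of snRNA genes and 39.3% of protein-coding genes, against 63.7% for tRNA genes. Among genes whose 5′ end lay over 1000 bp from a transcription start site (TSS) of another protein-coding gene, a reproducible summit was found at 23 of 215 tRNA genes (10.7%), against 6.17% of protein-coding genes and 5.35% of all genes.

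Counted as peaks, 21 distinct summits of the reproducible set lay within 500 bp of a tRNA gene. That is 0.617% of the 3401 summits, where the same sequence makes up 0.177% of the bases. Arm by arm, 6.03 summits would be expected from the bases, and the ratio was 3.48 (interval 2.28 to 5.32). The leading entries of replicate 1 gave 26 summits and a ratio of 4.32, and those of replicate 2 gave 29 summits and a ratio of 4.78.

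The surplus over the bases was not limited to the strongest peaks. Among pooled ranks 3402 to 10000, 59 entries lay at tRNA genes, a ratio of 5.07 (interval 3.94 to 6.53). Ranks 10001 to 20000 gave 66 entries and a ratio of 3.79, and ranks 20001 to 30000 gave 29 entries and a ratio of 1.66 (interval 1.16 to 2.38). The 154 weaker entries together gave a ratio of 3.31, close to that of the reproducible set. Some of them overlap a reproducible peak at the same genes, such as those of ranks 4483, 6383 and 7003. The weaker entries are thus not fully separate from the reproducible set, and the overlapping ones were not counted.

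Promoters of protein-coding genes are themselves rich in peaks, so the bases were also split by their distance from a protein-coding TSS. Beyond 500 bp of such a TSS, 15 reproducible summits lay at tRNA genes, against 3.30 expected, a ratio of 4.55. Within 500 bp of one, 6 lay there, against 2.88 expected, a ratio of 2.08. The weaker entries gave ratios of 3.64 and 2.15 in the same order. In all, 28.6% of the summits at tRNA genes were near a protein-coding TSS, against 1499 of all 3401 reproducible summits. Set against all bases around them instead, summits were densest at tRNA genes whose own nearest protein-coding TSS lay within 500 bp, with a ratio of 10.9 (interval 5.76 to 20.7). At tRNA genes over 5000 bp from such a TSS the ratio was 1.73, with an interval of 0.673 to 4.44 that holds 1.

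**Figure D2:**
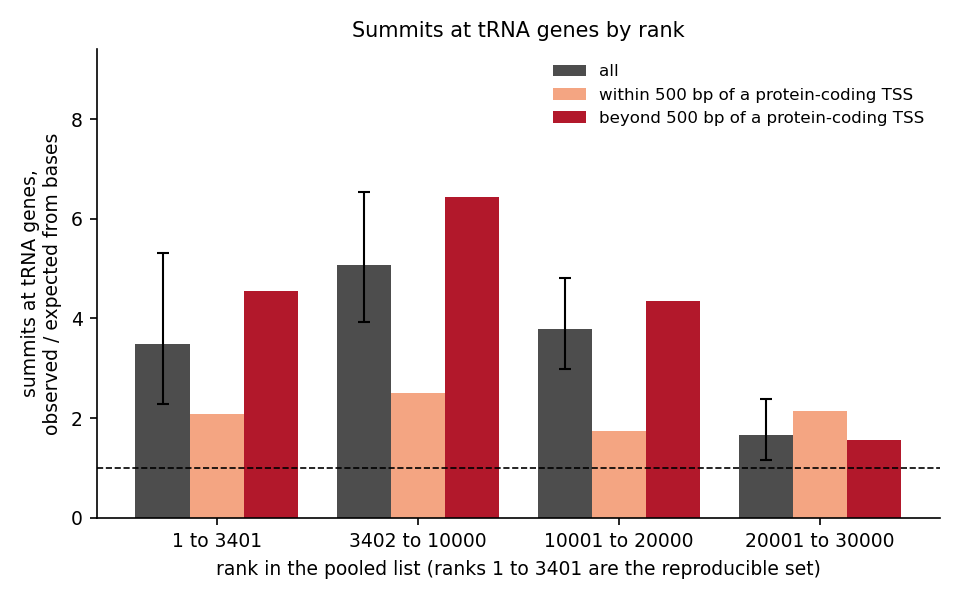
Entries at tRNA genes divided by the number expected from the share of bases on each arm (ratio, vertical axis), by rank in the pooled list (horizontal axis), for all bases (with 95% Wilson intervals) and for bases within and beyond 500 bp of a protein-coding TSS; the dashed line marks a ratio of 1. The ratio over all bases is 3.48 in the reproducible set, 5.07 in the next bin and 1.66 in the last.

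Peak signals at tRNA genes were close to those of the set. The 21 summits had signals from 91.2 to 439 with a median of 142 (interval of the median 110 to 192), against 89.8 to 1529 with a median of 129 for all reproducible peaks. Their ranks ran from 88 to 3311, and 11 of 21 lay above the set's median signal. Among leading entries, the median at tRNA genes was 0.937 times that of the whole in replicate 1 and 0.996 times in replicate 2.

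The 21 peaks were also found in the replicates' separate lists. Each overlapped an entry of both lists by at least 1 bp, as did 3377 of all 3401 reproducible peaks. The strongest overlapping entry was a leading entry in both replicates for 17 of 21 peaks, or 81.0%, against 2279 of 3401, or 67.0%, for the whole set. As the set was chosen from the reads of both replicates, this is a description. Each of the 21 had a leading entry in at least 1 replicate, and the share of the whole set is not given for this. An overlapping entry can also lie closer to a neighbouring pooled entry. For the peak by tRNA:Gln-CTG-2-4, that of replicate 2 (rank 2501) lay 211 bp from the summit. It lay 0 bp from the summit of a weaker entry of pooled rank 3818.

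**Figure D3:**
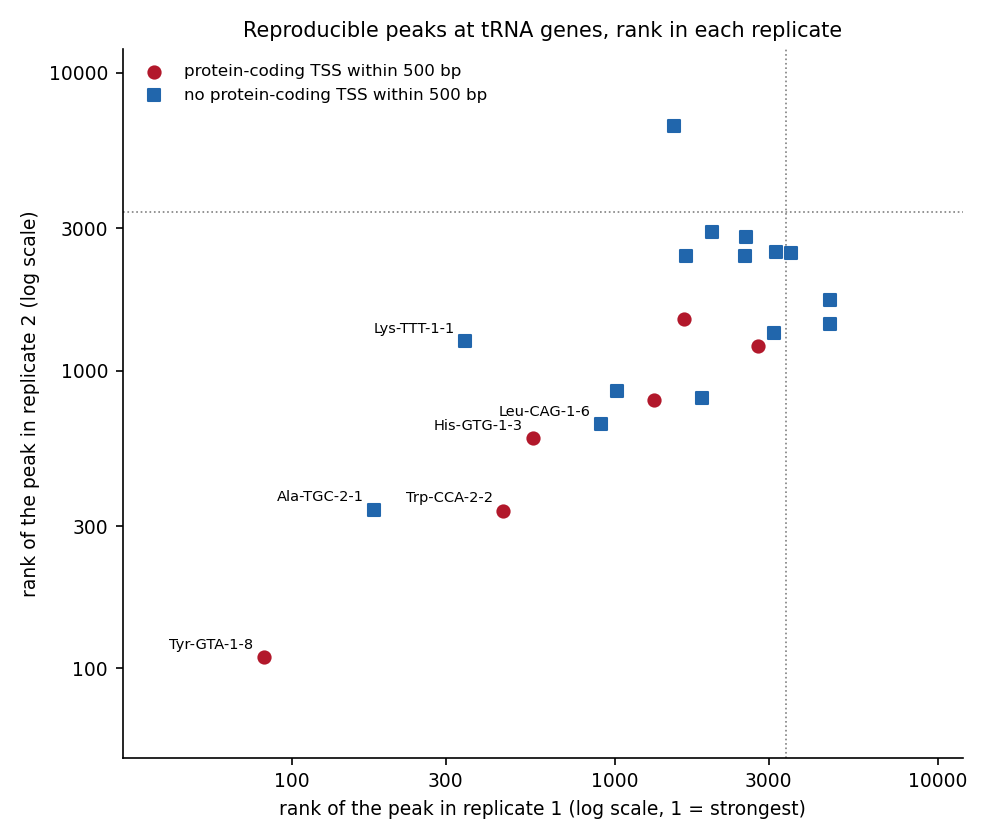
Rank of the strongest overlapping entry in replicate 1 (horizontal, log scale) and replicate 2 (vertical, log scale) for the 21 reproducible peaks at tRNA genes, marked by whether a protein-coding TSS lies within 500 bp of the summit; dotted lines mark rank 3401. Of the 21 peaks, 17 lie below the horizontal and left of the vertical line, and the peaks with the 6 highest signals are named by their nearest gene.

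The strongest of these peaks lay 166 bp upstream of tRNA:Tyr-GTA-1-8, a tyrosine tRNA gene with an intron, on 3R. It spanned 3R:8669267-8669458 in an intron of CG8036 and of p, 278 bp from a TSS of CG8036. Its pooled signal was 439, rank 88, with signals of 256 in replicate 1 (rank 82) and 180 in replicate 2 (rank 109). A second, much weaker peak lay by tRNA:Tyr-GTA-1-7 in the same cluster, with a signal of 91.2 and rank 3311.

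The next peaks by signal were at single genes and at a mixed pair. The summit 288 bp from tRNA:Ala-TGC-2-1 on 2R had a signal of 319, rank 219, with ranks 180 and 341 in replicates 1 and 2. It was intergenic and 2019 bp from the nearest protein-coding TSS. The summit 26 bp upstream of tRNA:Trp-CCA-2-2, also on 2R, had a signal of 258, rank 369, with ranks 453 and 338 in the replicates. It lay within 500 bp of tRNA:Gly-GCC-1-9 too, and 261 bp from a TSS of CG30122.

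Single genes of lysine and histidine followed. The peak beside tRNA:Lys-TTT-1-1 lay on 2L in an intron of Btk, a tyrosine kinase gene, 6113 bp from the nearest protein-coding TSS. Its signal was 226, rank 510, with ranks 345 and 1258 in replicates 1 and 2. At 104 bp it was also the narrowest of the 21 peaks, whose median width was 410 bp. The peak 88 bp upstream of tRNA:His-GTG-1-3 on 2R had a signal of 221, rank 527, with ranks 559 and 592, and lay 162 bp from a TSS of CG8490.

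Somewhat weaker peaks stood by leucine and glutamine genes. The summit 402 bp upstream of tRNA:Leu-CAG-1-6 lay on 3L in an intron of Sarm, with a signal of 192, rank 729, and ranks 908 and 662 in the replicates. It was the farthest of the 21 from its gene and the only one of them with the word GATAAG within 50 bp. The summit 197 bp upstream of tRNA:Gln-TTG-2-1, on the X in an intron of CG12535, had a signal of 189, rank 755, and ranks 1018 and 854. The summit inside tRNA:Gln-TTG-1-3 on 3R, 65 bp from its 5′ end, had a signal of 163, rank 1036, and ranks 1327 and 795, and tRNA:Gln-TTG-1-2 lay within 500 bp of it.

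The last 4 of the 12 strongest peaks lay by serine, valine, leucine and cysteine genes. The summit 214 bp upstream of tRNA:Ser-TGA-2-1 on 2R had a signal of 155 and ranks 1870 and 809 in the replicates. The summit 13 bp upstream of tRNA:Val-AAC-2-1 on 2R, in an intron of hts, the adducin gene, had a signal of 146 and ranks 1665 and 2421. Both had a second tRNA gene or more within reach. The summit 209 bp upstream of tRNA:Leu-TAA-2-1 on 3R had a signal of 142 and ranks 1645 and 1492. The summit 117 bp upstream of tRNA:Cys-GCA-1-3 on 3L, in an intron of the chitinase gene Cht7, had a signal of 125 and ranks 2006 and 2925, with 4 tRNA genes within 500 bp. The other 9 summits had signals from 91.2 to 119.

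All 12 overlapped a leading entry in both replicates. Among them the summit of that entry differed from the pooled summit by at most 126 bp in replicate 1 and 102 bp in replicate 2. Among the rest of the 21 peaks, only the largest differences were greater. The summit of the strongest overlapping entry was up to 226 bp away in replicate 1 (tRNA:Gln-CTG-2-3) and 270 bp in replicate 2 (tRNA:Glu-CTC-1-1). Others differed little, such as the peak at tRNA:Asn-GTT-1-6, by 3 and 41 bp. Of the 21 summits, 12 lay in introns of protein-coding genes, 9 were intergenic and none was exonic. The same split of the whole reproducible set is not given. Whether the summits at tRNA genes differ from it in place was not tested. One of the intronic summits lay inside tRNA:Asn-GTT-1-6 on 2R, in an intron of EcR, the gene of the ecdysone receptor, 5434 bp from the nearest protein-coding TSS. It had a signal of 110, rank 2385, ranks 2548 and 2811 in replicates 1 and 2, and 4 tRNA genes within 500 bp. More than 1 tRNA gene lay within reach of 12 summits, and 1 gene of 9.

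Close to the 500 bp limit the set was sparse. The farthest summit inside it was that at 402 bp from tRNA:Leu-CAG-1-6. The nearest outside were at 642 bp from tRNA:Gly-GCC-1-6, with a signal of 105, and at 783 bp from tRNA:Thr-AGT-1-1, with a signal of 116.

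Summits gathered close to the genes. Per base, reproducible summits were 3.51 times as dense inside tRNA genes as on the arms, 5.52 times within 1 to 100 bp, 4.35 times within 101 to 200 bp and 4.93 times within 201 to 300 bp. From 301 to 500 bp only 1 was found, and from 2001 to 5000 bp the density was 1.48 times that of the arms. These bins rest on 2, 8, 5 and 5 summits. Weaker entries, which are more numerous, were most dense inside the gene itself, with 38 entries and a density of 8.53 times that of the arms. They stood at 4.24 times within 1 to 100 bp, 2.56 times within 101 to 200 bp and 1.54 times from 2001 to 5000 bp.

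**Figure D4:**
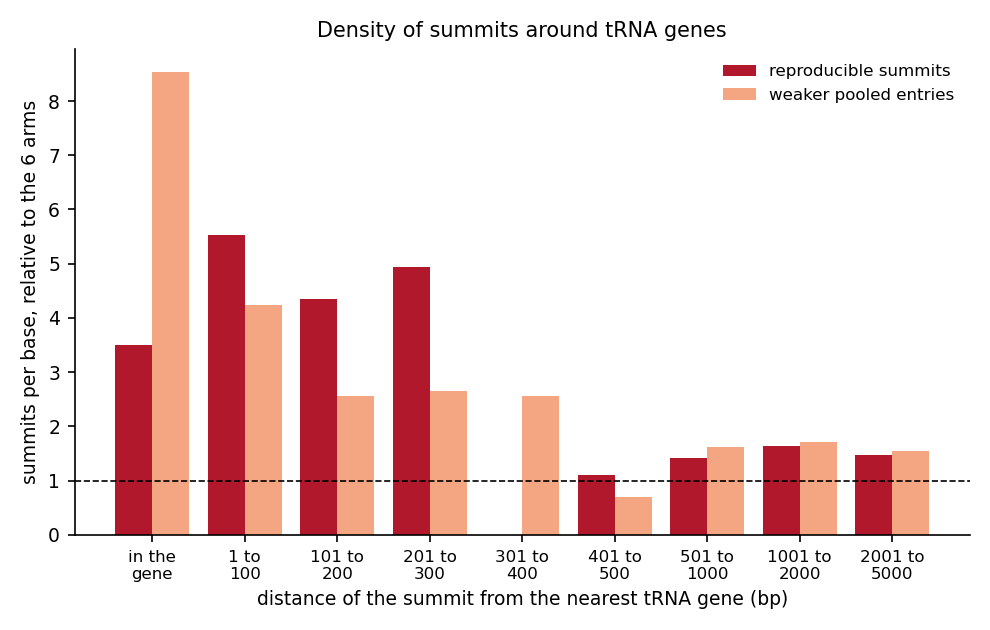
Summits per base relative to the 6 arms (vertical axis) by distance from the nearest tRNA gene (bp, horizontal axis), for reproducible summits and weaker pooled entries; the dashed line marks the density of the arms. Weaker entries stand at 8.53 inside the gene and at 1.54 from 2001 to 5000 bp.

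The side of the gene was mixed. Of the 21 reproducible summits, 12 lay upstream of the nearest tRNA gene, 2 inside it and 7 downstream. The median offset from the 5′ end was −26 bp with an interval of −117 to 140, which spans the gene. Of the 154 weaker entries, 64 lay upstream, 38 inside and 52 downstream, with a median of 41 bp (interval 1 to 47). The median distance to the gene was 109 bp for the reproducible summits and 60.5 bp for the weaker ones.

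The 5 strongest weaker entries had signals from 85.6 to 89.5, just under the lowest of the set. The first lay by tRNA:Glu-CTC-1-1, at rank 3428, a gene that also had a reproducible summit of rank 2943. The second lay by tRNA:Lys-CTT-1-13 at rank 3453 and was a leading entry in both replicates, with ranks 2532 and 2862. The others lay by tRNA:Asp-GTC-1-5, tRNA:Gly-GCC-1-13 and tRNA:Gly-TCC-1-2, the last with its summit inside the gene.

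By amino acid, reproducible summits were spread over 14 of the 22 names that occur in the symbols. Glutamine tRNA genes had the highest share, with 7 of 12 genes, or 58.3% (interval 32.0 to 80.7). Cysteine followed with 3 of 7, asparagine and tyrosine with 3 of 10 each, leucine with 6 of 22 and valine with 4 of 15. Shares were lower for lysine (3 of 19), serine (3 of 20) and glutamate (3 of 21). Histidine, tryptophan, isoleucine, alanine and glycine had 1 gene each, of 6, 8, 12, 17 and 20 genes in that order.

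Counts by amino acid rest on few peaks, since neighbours share them. The 7 glutamine genes had 4 summits among them, the 3 cysteine genes 1 and the 3 asparagine genes 1. No reproducible summit lay by the 26 arginine, 18 threonine, 17 proline, 14 aspartate, 8 phenylalanine, 6 methionine and 6 initiator methionine genes, nor by tRNA:SeC-TCA-1-1, the 1 selenocysteine gene. The upper end of the interval for 0 of 26 arginine genes was 12.9%, just below the 13.6% of all tRNA genes. In the other groups without a summit it ran from 17.6% for threonine to 79.35% for selenocysteine, so those intervals hold 13.6%.

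Weaker entries lay by genes of all these groups. A pooled entry of any rank lay by 18 of 26 arginine (69.2%), 13 of 18 threonine (72.2%) and 9 of 14 aspartate genes (64.3%). The share of all tRNA genes was 65.1%, which the intervals of these groups hold. Proline genes had 9 of 17 (52.9%). Initiator methionine and methionine genes had 2 of 6 each, and phenylalanine genes 3 of 8. The entry by tRNA:SeC-TCA-1-1 ranked 27523 and was listed in replicate 1 but not in replicate 2.

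**Figure D5:**
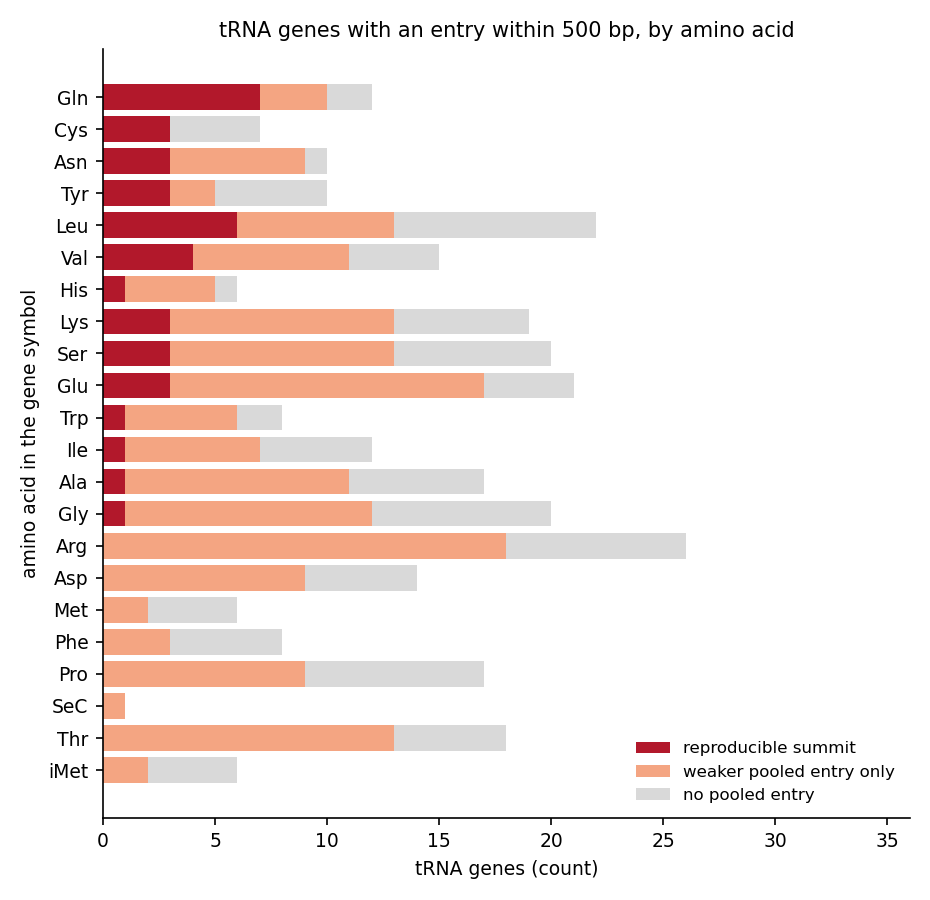
Number of tRNA genes (horizontal axis) with a reproducible summit, with a weaker pooled entry only and with no pooled entry within 500 bp, by the amino acid in the gene symbol (vertical axis), ordered by the share with a reproducible summit. Glutamine genes lead with 7 of 12, while 18 of 26 arginine genes have a weaker entry and none a reproducible one.

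Anticodon families of 8 genes or more ranged from 50% to 0. Gln-CTG and Leu-CAG each had a reproducible summit by 4 of 8 genes, beside 13.6% of all tRNA genes. In each family, these 4 genes lay in the same cluster and had 2 summits among them. Ala-AGC, Arg-ACG, Arg-TCG, Asp-GTC, Phe-GAA, Ser-AGA and Thr-AGT had none. Within arginine the 2 families of 10 genes differed in the pooled list. All 10 Arg-ACG genes had an entry there, with a best rank of 7644, and 3 of 10 Arg-TCG genes, with a best rank of 7722. The Arg-ACG genes lay on 2R and 3R, where neighbours share entries, and most Arg-TCG genes on the X. A pooled entry lay by 76.0% of all tRNA genes on 2R, 64.6% on 3R and 38.5% on the X. Family and arm therefore cannot be told apart here.

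Copies of the same sequence differed in whether a peak lay beside them. Compared over the whole gene, introns included, 238 of the genes fell into 43 families of identical copies. In 14 families, with 94 genes, some copies had a reproducible summit within 500 bp and others had none. In 1 family of 2 genes both had one. For pooled entries of any rank, 32 families with 196 genes held copies with and without one. Over all tRNA genes, 13.6% had a reproducible summit and 65.1% a pooled entry. How many mixed families these shares alone would give was not computed. The 13 identical tRNA:Lys-CTT-1 genes had a reproducible summit by 2 and a pooled entry by 11, and the 13 tRNA:Gly-GCC-1 genes by 1 and 9. Of the 5 identical tRNA:Gln-CTG-2 genes, 3 had a reproducible summit and 2 had no pooled entry.

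How the authors treated reads that align to several copies is not given in the sources used here. The share with a reproducible summit was 19.3% (interval 11.1 to 31.3) of the 57 genes with a unique sequence, 11 of 58 genes with 2 to 4 copies, 10.8% with 5 to 9 copies and 8.70% (interval 4.05 to 17.7) of the 69 genes with 10 or more copies, and these intervals overlap. For pooled entries the shares were 56.1%, 69.0%, 59.5% and 78.3% in the same order of classes. The part of multiply aligned reads in these values was not tested.

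Shares were higher among clustered genes than among lone ones. Genes under 5000 bp apart were joined, which gave 146 clusters, 77 of them with 1 gene. A reproducible summit lay by 17 of 78 genes in clusters of 5 or more, or 21.8% (interval 14.1 to 32.2). In clusters of 2 to 4 it lay by 18 of 140 genes, or 12.9% (8.29 to 19.4). The shares with a pooled entry were 78.2% and 68.6%. Counted as clusters, which offer more genes to be near a summit, the shares rise further with size. Of the 11 clusters of 5 genes or more, 5 had a reproducible summit and all 11 a pooled entry. Of the 58 clusters of 2 to 4 genes, 8 had a reproducible summit and 48 a pooled entry. Of the 77 lone genes, 5 had a reproducible summit, or 6.49%, and 35 a pooled entry, or 45.5%.

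A cluster covers more bases than a lone gene, so the summits were also set against the bases. The ratio of reproducible summits to those expected was 5.95 (interval 2.89 to 12.3) around clusters of 5 or more, 3.30 (1.74 to 6.26) around clusters of 2 to 4 and 2.35 (1.01 to 5.50) around lone genes. These intervals overlap. For weaker entries the ratios were 4.08, 3.56 and 2.57.

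The large clusters differed among themselves. On 2L, a cluster of 5 glutamine genes had 4 genes with a reproducible summit and 2 summits, the stronger nearest to tRNA:Gln-CTG-2-4 at rank 2415. On 3L, a cluster of 6 leucine genes had 4 such genes and 2 summits, the stronger that by tRNA:Leu-CAG-1-6. A cluster of 4 cysteine and 2 lysine genes in Cht7 had 4 such genes, nearest to tRNA:Cys-GCA-1-3.

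On 2R, the 11 genes in and beside an EcR intron (3 arginine, 3 asparagine, 1 isoleucine and 4 lysine) had 4 genes with a reproducible summit and 10 with a pooled entry. A cluster of 5 histidine genes there had a reproducible summit by tRNA:His-GTG-1-3 alone and a pooled entry by all 5. The 7 isoleucine and leucine genes of another cluster, with tRNA:Ile-AAT-1-7 nearest to its best entry, had no reproducible summit, and 4 of them had a pooled entry. The 8 genes of a cluster of 6 glutamate and 2 initiator methionine genes, best entry by tRNA:Glu-TTC-1-6 at rank 3908, had no reproducible summit, and all 8 had a pooled entry.

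The other large clusters also had no reproducible summit. The largest on 3R, 11 genes of alanine, proline, threonine and valine, had 8 genes with a pooled entry and a best rank of 4939, by tRNA:Val-CAC-1-1. A cluster of 5 arginine and 1 asparagine genes on 3R had a pooled entry by all 6, with a best rank of 7992 by tRNA:Arg-ACG-1-8. The 6 glutamate genes on 3L had 3, best rank 12799 by tRNA:Glu-CTC-3-8, and the 7 arginine and serine genes on the X had 3, best rank 20525 by tRNA:Ser-CGA-1-1.

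Of the arms, 2R carried the most tRNA genes, 100, and the most summits at them, 9 against 1.89 expected from its bases. The other arms had 3 against 0.985 (2L), 4 against 1.02 (3L), 4 against 1.59 (3R) and 1 against 0.543 (X). A pooled entry lay by 76.0% of tRNA genes on 2R and 38.5% of the 26 on the X. Arm 4 has no tRNA gene.

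Shares were also higher near protein-coding promoters. With a protein-coding TSS within 500 bp of the gene, 11 of 34 tRNA genes, or 32.4% (interval 19.1 to 49.2), had a reproducible summit. With the TSS over 5000 bp away, 9 of 113 had one, or 7.96% (interval 4.25 to 14.4). In the pooled list the shares were 82.4% and 55.8%. Of tRNA genes in introns, 24 of 130 had a reproducible summit, against 16 of 158 intergenic ones and 0 of 7 in exons.

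Of the sequence words searched in the tRNA genes, a B box word GTTCGA or GTTCAA was found in 276 of the 295. The 164 genes with GTTCGA had a reproducible summit in 14.0% of cases and the 112 with GTTCAA alone in 15.2%. Of the 19 genes with neither, none had a reproducible summit and 11 had a pooled entry. None of the 5 annotated pseudogenes had a reproducible summit. The intervals for these 2 zero counts reach 16.8% and 43.45%, and both hold the 13.6% of all tRNA genes. The spelled A box word was found in 70 genes, in 68 of them near the start, and is too strict to sort genes by.

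At the summits, words were counted within 50 bp on both strands. The word GATAAG was at 1 of 21 summits at tRNA genes, or 4.76%, against 341 of all 3401 reproducible summits. GTTCGA and GTTCAA were each at 1 of 21, against 3.23% and 5.91%. CACGTG was at 2 of 21, against 1.00%, and GAGAG at 3 of 21, against 11.9%. Counts of 1 to 3 do not separate these shares. Among the 154 weaker entries, GTTCGA was at 20.8% and GTTCAA at 14.9%. Most tRNA genes hold 1 of these words, and 38 of the weaker summits lay inside a tRNA gene. The words were not counted apart for summits inside and outside the genes.

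Among other genes known to be transcribed by RNA polymerase III, none of 96 5S rRNA genes, 3 U6 snRNA genes or 2 7SL RNA genes had a reproducible summit within 500 bp, beside 9.44% of all annotated genes by their 5′ ends. A pooled entry lay by 1 of the 96 5S rRNA genes, which are near-identical repeats, by 2 of the 3 U6 genes and by neither 7SL gene, beside 37.1% of all genes. Of the 2 genes of the RNase P and MRP RNAs, none had a reproducible summit, and RNaseMRP:RNA had a pooled entry of rank 5306. Of 2 genes of 7SK RNA, snRNA:7SKa had a summit with a signal of 124, rank 1863, and ranks 2483 and 1294 in replicates 1 and 2.

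Genes that make and serve tRNAs were counted by any of their TSSs, beside 12.7% of all 13945 protein-coding genes with a reproducible summit within 500 bp of a TSS and 42.1% with a pooled entry. Of 20 aminoacyl-tRNA synthetase genes, which encode the enzymes that load tRNAs, 8 had a reproducible summit and 14 a pooled entry. AspRS led with a signal of 285, rank 289 and ranks 342 and 262 in the replicates, followed by SerRS at 141, GluProRS at 138 and MetRS at 129. Of 25 matched genes for RNA polymerase III subunits and factors, 6 had a reproducible summit and 14 a pooled entry. These included CG7099 (signal 293), Brf, which encodes a part of TFIIIB (231), the subunit gene Polr3E (216) and Bdp1, another part of TFIIIB (146).

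Of 15 matched genes listed for tRNA processing and modification, 4 had a reproducible summit and 7 a pooled entry. Trmt6, which encodes a tRNA methyltransferase subunit, had a signal of 208 and the RNase P gene Rpp14b 111. Another, kra (139), encodes a translation regulator and is no tRNA processing gene. No test was made on these lists, which are short and were chosen with earlier results known.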

How the data were processed

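Chromatin immunoprecipitation of Eip93F-GFP was measured in 2 replicates of 1 group. Per the notes deposited with the files, the authors called peaks and background on dm6 for each replicate and for both alignments together, against a control alignment, and derived the reproducible set by the irreproducible discovery rate. The deposited signal is the caller's own value per peak. Which aligner and which caller were used is not given in the sources used here. Depth is unknown, as the lists hold no read counts.

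Genes came from Ensembl release 115, without transposable elements, and the 295 tRNA symbols and coordinates matched RefSeq. The 6 arms were used; 1 mitochondrial entry of the list of replicate 2 was left out, and the lists on dm3 were not used. Expected counts are the share of an arm's sequenced bases within 500 bp of a tRNA gene times its summits, which is the mean of random positions. No comparison of groups was possible and no test was run. Shares carry Wilson intervals at 95%. The counting was tested on simulated data with planted summits. Python 3.11.15, numpy 2.4.6, pandas 2.3.3, scipy 1.17.1 and matplotlib 3.10.9 were used.

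The genes named are those nearest to the 12 strongest peaks and the 5 strongest weaker entries, those at the best entry of each cluster of 5 genes or more, anticodon families of 8 genes or more with the highest and lowest shares, amino acids with 3 genes or fewer, and up to 4 members per list, of which 1 is not reported here; genes at the distance limit, with identical copies or in the EcR intron were named after their values were seen. Members and lists were chosen with earlier results of these data known.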

Additional observations from a re-analysis of the deposited data

How the results depend on the processing

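Of 60 alternative settings, 51 left the value within 1.5 times or its interval and 9 moved it further. With only the peaks above the set's median signal, a summit lay by 16 genes, 11 summits lay at tRNA genes and 11 clusters held one. Among the 214 tRNA genes with no protein-coding TSS within 1000 bp, the values were 24 genes, 11 summits and 10 clusters. Fewer peaks or genes enter these counts. The ratio to the base share was 3.66 with the peaks above the median signal. It was 2.48 with the 214 genes, below the 3.48 of all 295 tRNA genes. Within 250 bp of a protein-coding TSS lay 9.52% of the summits at tRNA genes, and within 1000 bp 47.6%. With a list of leading entries cut to the 50% with the highest signal, 11 genes had one in both replicates, and with the leading 10000, 68 had. The leading entries of a single replicate gave 41 to 46 genes, 26 to 29 summits, a ratio of 4.32 to 4.78 and 20 to 21 clusters. The ratio ran from 2.48 to 5.16 over all settings. The median offset from the 5′ end, −26 bp, was −15.5 bp with replicate 1 alone and 50 bp with replicate 2 alone, so its sign depends on the list. The ratio of the median signal to the list median ran from 0.919 to 1.10, so its side of 1 depends on the setting. No paired analysis was possible because the series has 1 group. Counts of 1 to 4 summits per arm, amino acid or word, and the unknown depth, limit what can be told apart.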
